A study of Mus musculus with 3 samples.

Results

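The genes described here are 10 regulators and targets of the cellular response to low oxygen: Hif1a, Epas1, Arnt, Egln1, Egln2, Egln3, Vhl, Vegfa, Bnip3 and Car9. They were chosen by gene symbol for their place in the pathway, with earlier results of these data known, and all 10 have a row among the 17285 rows of the deposited table. RNA was sequenced from B16, a melanoma line of the mouse, after stable introduction of an empty vector (called Mock). The 3 libraries, Mock replicates 1, 2 and 3, form a single group, so no treatment, genotype or oxygen level could be compared. The promoter of the vector, whether the line is a single clone, and the oxygen at which the cells were grown are not stated in the labels. Nothing in the labels ties the libraries to separate cultures. The p-values therefore reflect the spread among these 3 libraries alone, and that spread may be technical. In the tests of level and of ratio the spread was also shared across genes. A very small p there does not rest on a gene's own 3 values.

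In cells with enough oxygen, the alpha subunits of hypoxia-inducible factor (HIF) are made and destroyed continuously. Prolyl hydroxylases of the EGLN family mark them in an oxygen-dependent step, and the VHL protein, part of a ubiquitin ligase, binds the marked subunit and sends it to the proteasome. When oxygen falls, the alpha subunit escapes, pairs with ARNT and switches on genes for glycolysis, vessel growth, mitochondrial turnover and acid handling. This control acts on the protein, so the RNA level of an alpha subunit is not a measure of HIF activity. In pigment cells, Hif1a is also a known target of the lineage factor MITF.

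The libraries held 9328087 to 9456501 counts, and a single read was worth 0.106 to 0.107 CPM (counts per 1e6, scaled between libraries with TMM factors). All 7 pigment cell markers, led by Tyrp1 at 12337.4 ± 399 CPM (mean ± SD over n = 3 libraries, here and below), were above 1 CPM. The lowest of them was Tyr, at 6.52 ± 0.839 CPM and with fractional counts. The 5 leukocyte markers with a row summed to between 0 and 0.530 CPM per library, with no reads of Csf1r, Adgre1, Tyrobp or Cd3g. The 6 endothelial markers summed to between 0.212 and 0.855 CPM, with none of Cdh5, Tie1 or Emcn. The 3 erythroid markers summed to between 0.212 and 0.748 CPM. The 5 fibroblast markers summed to between 9.62 and 13.0 CPM. Col1a1 (8.29 ± 1.62 CPM) and Pdgfrb were above 1 CPM there, and Dcn and Col3a1 had no reads.

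Of the 10 hypoxia genes, 8 had RNA levels above 1 CPM, Egln3 was below, and Car9 was unresolved. Each level was tested against 1 CPM with edgeR's quasi-likelihood F test, adjusted by Benjamini-Hochberg over all 14408 genes with a read. Of those genes, 74.3% were called above 1 CPM and 20.2% below, so 8 of 10 and 1 of 10 lie near the share in all genes. The median of the 10 was 42.1 CPM, beside 23.6 CPM over all genes with a read, or 11.2 against 4.92 CPM per kilobase of exon. A bulk measurement cannot tell apart fewer cells with a transcript and less of it per cell.

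**Figure D1:**
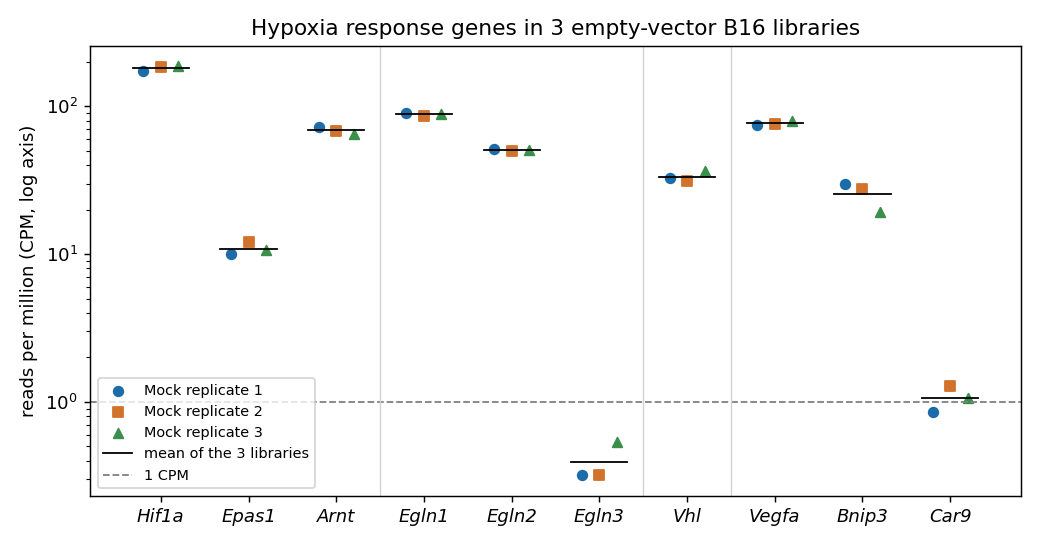
CPM (log axis) of the 10 genes in each of the 3 Mock libraries, ordered by role: HIF subunits, prolyl hydroxylases, Vhl, then targets. Points are libraries, black lines their means and the dashed line 1 CPM. Hif1a was near 182 CPM, while Car9 straddled the line and Egln3 was under it in every library.

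Hif1a, which encodes the widely expressed oxygen-sensitive subunit, was the most abundant of the 10, in reads and per kilobase. Its gene lies on chromosome 12 (73901375 to 73947530, plus strand, GENCODE M21 on GRCm38, as for the positions that follow). It stood at 174, 184 and 187 CPM in replicates 1, 2 and 3, from 5133 reads in all. The 3 libraries spanned 0.10 on the log2 scale, which is little beside the distance to any other alpha subunit gene.

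Epas1 (chromosome 17, 86753700 to 86833410, plus strand) encodes the second alpha subunit, HIF-2 alpha, known for its high level in endothelium and its role in erythropoietin control. It stood at 10.04, 12.1 and 10.6 CPM. The libraries lay close together, and the gene was called above 1 CPM (edgeR adjusted p = 1.82e-09). Per kilobase of exon within each library, Epas1 was 15.8-fold lower than Hif1a, a log2 ratio of -3.98 ± 0.11, lower in 3 of 3 libraries. The ratio was called by limma with an adjusted p too small for the software to hold, but 5.21e-07 without replicate 1. Hif1a made up 94.1% ± 0.452 of the per-kilobase sum of both genes and Epas1 5.95% ± 0.452. The summed fibroblast and endothelial markers given above stand beside this value. Which cells their reads came from, and any part in the Epas1 level, was not tested. The third alpha subunit gene, Hif3a, many of whose products act as inhibitors of the other two, was above 1 CPM at 5.32 ± 0.679 CPM. Counted together with them it held 2.37% ± 0.366 of the sum.

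Arnt (chromosome 3, 95434388 to 95497240, plus strand), the main partner of the alpha subunits in HIF dimers, stood at 72.8, 68.5 and 65.4 CPM. Per kilobase it lay between Epas1 and Hif1a in each library. It was 3.59-fold lower than Hif1a, with a log2 difference of -1.84 ± 0.13 (limma adjusted p = 1.09e-308, 4.55e-07 without replicate 1). With the longest annotated transcript as the length, the log2 ratio was -1.27. Its paralog Arnt2, known mainly from neurons, was above 1 CPM at 4.57 ± 0.273 CPM. The other 9 members were all called lower than Hif1a per kilobase by limma and none higher. Among 14096 genes with a length, 86.4% were called lower and 12.0% higher, so the count itself is close to that of all genes.

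The prolyl hydroxylase genes split into a pair of abundant members and the remaining Egln3, which had few reads. Egln1 (chromosome 8, 124908587 to 124949324, minus strand) encodes PHD2, the main hydroxylase of HIF-1 alpha in normal oxygen. It stood at 90.7, 86.4 and 89.5 CPM. Egln2 (chromosome 7, 27158658 to 27166802, minus strand), which encodes PHD1, stood at 51.7, 50.1 and 50.7 CPM. These were the steadiest of the 10 genes, with coefficients of variation of 2.51% and 1.57% between libraries. Counting error alone gives 3.46% and 4.57% at their depth.

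Egln3 (chromosome 12, 54178981 to 54203860, minus strand) encodes PHD3, which is itself a strongly hypoxia-induced target and so closes a feedback loop. It had 3, 3 and 5 reads, or 0.321, 0.318 and 0.530 CPM. Its 11 reads give 0.390 CPM with an exact 95% Poisson interval of 0.195 to 0.697 CPM, which covers counting error only. It was below 1 CPM by edgeR (adjusted p = 0.00892, range over all alternatives 2.26e-04 to 0.66). The upper end is DESeq2's Wald test, which called 0 genes of the table below 1 CPM and 0 at an unadjusted p under 0.05. The range also includes tests against 0.5 and 2 CPM.

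Per kilobase, Egln3 was 152-fold lower than Egln1 in the same libraries (limma adjusted p = 8.58e-69, 2.51e-04 without replicate 2). The log2 difference was -7.25 ± 0.37, lower in 3 of 3. Egln2 was 1.36-fold lower, at -0.44 ± 0.02 (adjusted p = 1.48e-18), also in 3 of 3 libraries. The second difference depends on the gene length used. With the longest annotated transcript in place of merged exons, the ratio of Egln2 to Egln1 was -0.03 (adjusted p = 0.501, range over all alternatives 9.16e-57 to 0.501). As shares of the family per kilobase of merged exon, Egln1 held 57.5% ± 0.271, Egln2 42.2% ± 0.340 and Egln3 0.340% ± 0.105. Against Egln1, Hif1a was the only one of the 9 other members called higher and the other 8 were lower, beside 15.2% and 82.9% of all genes.

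Vhl (chromosome 6, 113623959 to 113631633, plus strand), the substrate receptor of the ligase and a tumour suppressor gene, stood at 32.8, 31.1 and 36.4 CPM. Replicate 3 was the highest, and the spread was within what counting allowed (Poisson deviance test across libraries, adjusted p = 0.495). The genes of its partner proteins were all higher per kilobase. Elob and Eloc, which encode the elongins that join VHL to the complex, stood at 113 ± 2.26 and 34.4 ± 1.13 CPM per kilobase beside 11.1 ± 0.905 for Vhl. The scaffold Cul2 stood at 19.5 ± 0.415 and the RING subunit Rbx1 at 21.04 ± 0.496 CPM per kilobase. The log2 ratio to Vhl was 3.35 ± 0.14 for Elob, 1.63 ± 0.14 for Eloc, 0.92 ± 0.12 for Rbx1 and 0.81 ± 0.09 for Cul2, as a description without a test. Cul2 and Rbx1 were picked for their place in the complex after their values were seen, as were Hif3a and Arnt2. Hif1an, whose product FIH blocks the activation domain of the alpha subunits, stood at 56.9 ± 3.07 CPM and was likewise added.

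The 3 target genes among the 10 covered a wide range. HIF binds DNA at a short core, ACGTG or GCGTG, in promoters and more distant elements. The 250 bases before the annotated start (RefSeq, GRCm38.p6) are shown for the targets, including Egln3, because their RNA levels lay so far apart. Letters are 5′ to 3′ on the strand of the gene, and capitals mark each core on either strand (on the reverse strand it reads CACGT or CACGC). The windows are chr7:138909507-138909756 for Bnip3, chr17:46032378-46032627 for Vegfa, chr4:43506776-43507025 for Car9 and chr12:54203875-54204124 for Egln3. Bnip3 and Egln3 are on the minus strand, as is Vegfa, and Car9 is on the plus strand.
Bnip3: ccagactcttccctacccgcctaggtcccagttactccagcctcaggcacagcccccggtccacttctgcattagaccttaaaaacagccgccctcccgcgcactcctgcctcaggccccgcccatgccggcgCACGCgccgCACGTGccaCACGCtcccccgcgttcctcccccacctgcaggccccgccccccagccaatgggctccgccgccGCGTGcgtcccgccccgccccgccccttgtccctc
Vegfa: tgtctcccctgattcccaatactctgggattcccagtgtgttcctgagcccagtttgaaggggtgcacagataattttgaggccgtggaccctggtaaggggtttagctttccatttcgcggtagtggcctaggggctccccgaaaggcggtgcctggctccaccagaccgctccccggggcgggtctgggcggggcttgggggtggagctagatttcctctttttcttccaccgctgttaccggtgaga
Car9: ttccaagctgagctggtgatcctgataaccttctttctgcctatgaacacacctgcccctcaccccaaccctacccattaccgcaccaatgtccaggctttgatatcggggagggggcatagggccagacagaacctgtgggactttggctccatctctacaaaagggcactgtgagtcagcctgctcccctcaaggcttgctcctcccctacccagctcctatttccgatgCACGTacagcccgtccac
Egln3: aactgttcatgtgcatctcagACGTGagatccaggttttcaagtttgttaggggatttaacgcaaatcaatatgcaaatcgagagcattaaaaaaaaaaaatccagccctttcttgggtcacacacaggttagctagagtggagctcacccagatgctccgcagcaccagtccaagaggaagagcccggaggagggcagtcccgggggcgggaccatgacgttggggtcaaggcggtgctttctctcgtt

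The Bnip3 window held 5 matches, of which a single palindrome, CACGTG, counts once on each strand. It lies among the others in the middle of the window, and the nearest match began 35 bases before the start. Car9 held 1 match, 18 bases before its start, and Egln3 held 1, 229 bases before. The Vegfa window at its first annotated start held 0. That says only that these letters are absent from this stretch. A second annotated Vegfa start had 2 matches in its window, chr17:46025164-46025413, which lies inside the gene. Promoters of 9 members were searched, and that of Epas1 was not analysed here. By this search, 7 of the 9 had a match at their first listed start. With any listed start it was 8 of 9, Vegfa being added by its window inside the gene. The Hif1a window counted here, chr12:73907617-73907866, also lies inside the gene span given above. Over all 32851 promoter windows of this length, 38.6% had a match. That is a share of windows, not of genes, and a gene with more listed starts has more chances of a match. The windows of the members ran from 48.0% to 86.0% G and C, against a median of 52.4% over all windows, and the part of base composition in the share with a match was not tested. The palindrome CACGTG, which is also an E-box bound by MITF and MYC family factors, was in 6.02% of all windows and in those of Hif1a and Bnip3. A match is a description of the letters, not evidence of binding.

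Vegfa (chromosome 17, 46016993 to 46032369, minus strand) encodes the main growth factor of vessels and is a classical HIF target. It stood at 74.6, 76.6 and 79.7 CPM, so the 3 libraries lay close together. Its level per kilobase, 18.0 ± 0.596 CPM, overlapped that of Egln2, at 18.2 ± 0.285, with merged exons as the length, a description without a test. The log2 gap was 0.02 ± 0.06, with Egln2 higher in 2 of 3 libraries. With the longest annotated transcript as the length, the gap was 0.11 ± 0.06 and Egln2 was higher in 3 of 3 libraries.

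Car9 (chromosome 4, 43506966 to 43513729, plus strand) encodes carbonic anhydrase IX, a surface enzyme that handles acid and is widely used as a marker of hypoxic tumour cells. It had 8, 12 and 10 reads, or 0.855, 1.27 and 1.06 CPM. The libraries fell on either side of 1 CPM, and the mean of 1.06 CPM was not resolved from it (edgeR adjusted p = 0.759). The exact 95% Poisson interval of its 30 reads was 0.717 to 1.52 CPM. Per kilobase it was 64.5-fold lower than Hif1a.

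Bnip3 (chromosome 7, 138890836 to 138909519, minus strand) encodes a mitochondrial protein of mitophagy and cell death. It stood at 29.9, 27.7 and 19.4 CPM, from 280, 261 and 183 reads. Replicates 1 and 2 lay close together and replicate 3 was clearly lower. It was the only one of the 9 members with a mean of at least 10 counts that varied between libraries beyond counting error (Poisson deviance test, chi-square, adjusted p = 7.37e-04). In the same test 3.31% of 11000 genes were called. Its coefficient of variation was 21.6%, where counting alone gives 6.44%. Without replicate 3 the test called 0 members, 0 at an unadjusted p under 0.05, and the adjusted p of Bnip3 was 0.787. Without replicate 1 it was 0.0243 and without replicate 2 7.78e-04. An annotated antisense gene, Gm45507, covers 504 of the 2265 exon bases of Bnip3. Whether counting used strand is not stated in the labels, so reads of the 2 genes cannot be told apart there. Shorter opposite-strand overlaps exist for Hif1a (330 of 5896 exon bases), Car9 (214 of 2304) and Egln2 (11 of 2800), and a same-strand gene covers 148 bases of Hif1a.

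**Figure D2:**
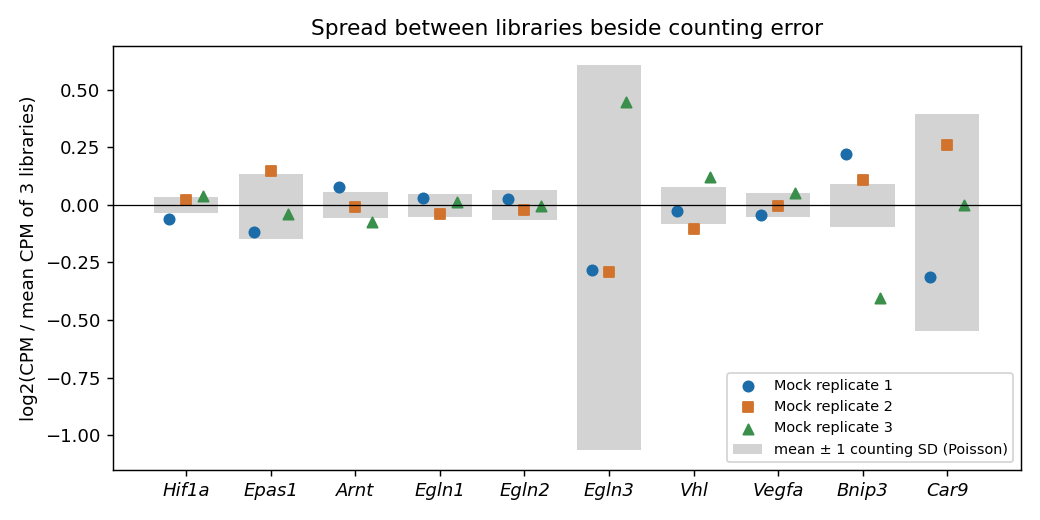
Each library's CPM relative to the mean of the 3 libraries, as log2, for the 10 genes. Grey bands are 1 Poisson counting SD on either side of the mean, and Bnip3 stands out by replicate 3, while the wide bands of Egln3 and Car9 reflect their 11 and 30 reads.

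The low value of Bnip3 in replicate 3 was set beside the other genes of the pathway, a comparison chosen after its value was seen. Against the mean of replicates 1 and 2, Bnip3 in replicate 3 was at a log2 ratio of -0.57, while Vegfa was at 0.08 and Vhl at 0.19. Among the 9 members tested, 5 were lower in replicate 3. Among 50 other pathway genes tested for variation, 32 were lower in replicate 3, beside 5510 of 11000 genes overall. The median log2 ratio was -0.04, beside -0.00033 overall. Of the 50, 6 were called as varying, beside 3.31% of all genes: the HIF coactivator gene Ep300 and the glycolytic genes Eno1, Tpi1, Aldoa, Hk1 and Hk2. The Poisson deviance test calls smaller relative differences at higher counts, and 4 of 7 pigment cell markers were called too. The median was 65.4 CPM over the pathway genes with a row, beside 12.6 CPM over all rows. The part of depth in these calls was not tested. Not all of the 6 pathway genes were low in replicate 3. The log2 ratio of replicate 3 to the others was 0.00365 for Eno1 (adjusted p = 2.17e-05) and 0.00074 for Tpi1 (0.0015), whereas it was -0.08 for Aldoa (3.56e-05), -0.09 for Hk1 (0.0466) and -0.15 for Ep300 (0.0103). The hexokinase gene Hk2 stood at 158, 157 and 130 CPM and was called as varying (adjusted p = 7.86e-06, 0.978 without replicate 3). Bnip3l, the nearest relative of Bnip3 and also a mitophagy gene, stood at 70.9, 70.9 and 62.6 CPM and was not called (adjusted p = 0.296). Ankrd37 and Pfkfb4, hypoxia targets with 46 and 93 reads over the 3 libraries, had log2 ratios of -0.85 and -0.61 without a call (adjusted p = 0.605 and 0.57). Whether these values share a source with the low Bnip3 was not tested.

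Ordered per kilobase of merged exon, the 10 genes ran Hif1a (30.8 ± 1.10 CPM per kilobase), Egln1 (24.7 ± 0.621), Egln2, Vegfa, Bnip3 (11.3 ± 2.44), Vhl, Arnt (8.60 ± 0.459), Epas1 (1.95 ± 0.188), Car9 (0.461 ± 0.0905) and Egln3 (0.146 ± 0.0458). Neighbours whose libraries overlapped were Egln2 and Vegfa, with a log2 gap of 0.02 ± 0.06, and Bnip3 and Vhl, with a gap of 0.00200 ± 0.44. The libraries of every other neighbouring pair did not overlap. The widest gaps were between Arnt and Epas1, at 2.14 ± 0.18, and between Epas1 and Car9, at 2.10 ± 0.16. Among all genes with a read and a length, Hif1a stood at percentile 87.3, Egln1 at 83.9, Arnt at 61.9, Epas1 at 35.6, Car9 at 25.1 and Egln3 at 19.0. With the longest annotated transcript as the length, Arnt moved ahead of Bnip3 and Vhl, at 15.9 ± 0.850 CPM per kilobase, with libraries overlapping those of Bnip3. Egln1 and Egln2 overlapped under that length, though Egln1 was higher in 3 of 3 libraries, with a log2 gap of 0.03 ± 0.02. Egln2 lay above Vegfa with a gap of 0.11 ± 0.06. Only Arnt, Bnip3 and Vhl changed place, and the other genes kept theirs under both lengths.

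**Figure D3:**
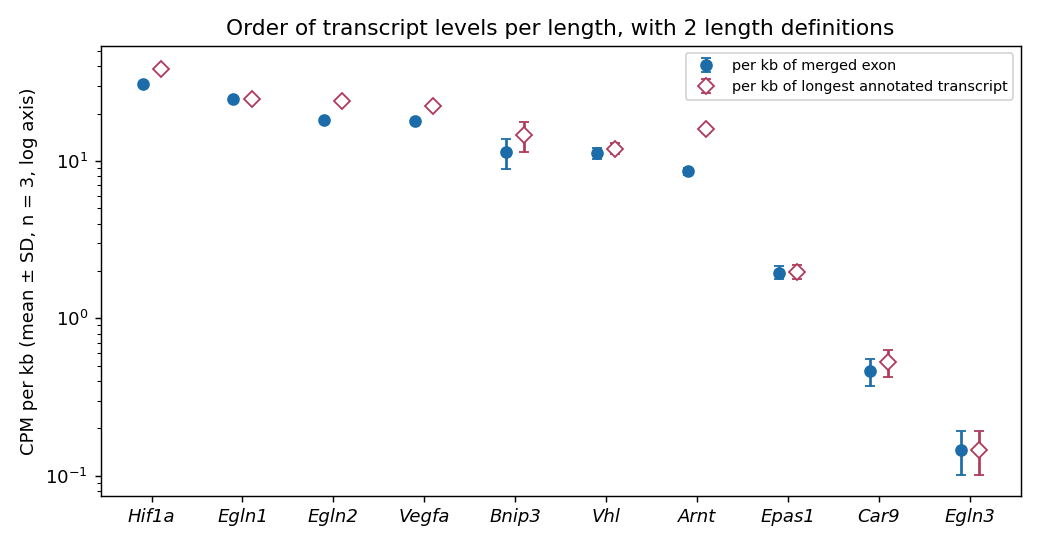
Level of the 10 genes per kilobase (CPM per kb, log axis, mean ± SD, n = 3), with merged exons (filled) or the longest annotated transcript (open) as the length. Hif1a led at 30.8 or 38.5, the middle of the order shifted with the length, and Epas1, Car9 and Egln3 stood apart at the low end.

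Other genes of the pathway came from lists of 63 genes in 5 roles, of which 61 had a row (Edn1 and Epo were not analysed here). Of the 57 with reads, 50 were above 1 CPM and 7 below by edgeR, beside the 74.3% and 20.2% of all genes. Their median was 65.4 CPM. Among 13 other HIF regulators 12 were above 1 CPM, with a median of 75.6 CPM. Those with the most reads were the coactivator genes Ep300 (166 ± 12.3 CPM) and Crebbp (159 ± 2.72 CPM), and Elob and Eloc. Ep300 varied between libraries (adjusted p = 0.0103) and stood at 179, 165 and 155 CPM. It lost that call without replicate 1 or 3 (0.569 and 0.252). P4htm, a membrane-bound prolyl hydroxylase gene, was below with 4 reads.

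Glucose uptake and glycolysis targets were the most abundant role, with a median of 333 CPM, or 38.9 CPM per kilobase beside 13.2 over all 5 roles. Of 16, 15 were above 1 CPM. They were led in reads by Gapdh (10468.5 ± 73.5 CPM), Eno1 (2573.9 ± 65.4 CPM), Aldoa (1627.7 ± 50.9 CPM) and Pgk1 (1439.9 ± 18.1 CPM). The glucose transporter gene Slc2a1 stood at 136 ± 1.36 CPM and Ldha, which makes lactate, at 800 ± 9.72 CPM. As background, these enzymes are made in most cells whatever the oxygen. Slc16a3, a lactate exporter gene with marked hypoxic induction, was the exception at 14 reads, or 0.495 ± 0.266 CPM (edgeR adjusted p = 0.0395, range over all alternatives 8.26e-04 to 0.98). It lost the call without any single replicate (adjusted p = 0.0968, 0.136 and 0.0602 without replicates 1, 2 and 3). Gapdh and Eno1 had fractional counts, so their levels are uncertain.

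Vessel genes were the scarcest role, with a median of 0.142 CPM, or 0.0875 CPM per kilobase. Of 9 with a row, 3 were above 1 CPM. Among them were Vegfb (164 ± 1.72 CPM), a relative of Vegfa that is not a strong hypoxia target, and Vegfc (32.4 ± 2.68 CPM, with fractional counts), the lymphatic growth factor. Angpt2, Adm, Angptl4, Pgf and Flt1 were below, with 14, 4, 4, 3 and 1 reads. Kdr, the main VEGF receptor gene, had no reads, which allows up to 0.106 CPM from 3 counts over the group. Leaving out replicate 1 or 2 ended the call of Angpt2 (edgeR adjusted p = 0.115 and 0.119, all alternatives 5.56e-04 to 0.98), and leaving out replicate 1 that of Adm (0.0855, all alternatives 3.38e-08 to 0.354). So Vegfa itself, at 77.0 ± 2.55 CPM, stood beside receptor genes with 0 or 1 read.

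Of the 4 mitophagy and pH genes 3 were above 1 CPM, among them the mitophagy genes Bnip3l (68.1 ± 4.82 CPM) and Fundc1 (29.9 ± 1.76 CPM). Car12, which encodes another carbonic anhydrase of the cell surface, had no reads. Of 19 other hypoxia-induced targets 17 were above 1 CPM, with a median of 66.3 CPM. Those with the most reads were the oxidoreductase gene Ero1l (493 ± 12.3 CPM), the transferrin receptor gene Tfrc (420 ± 11.6 CPM), Ndrg1 (362 ± 6.85 CPM) and the histone demethylase gene Kdm3a (149 ± 7.18 CPM). The collagen cross-linking gene Lox and the chemokine receptor gene Cxcr4 had no reads. Ankrd37 was above 1 CPM at 1.63 ± 0.494 CPM and was unresolved when replicate 1 or 2 was left out (edgeR: 0.204 and 0.173 adjusted p, all alternatives 3.41e-04 to 0.706). Genes named outside the rule of most reads and no reads were named after their values were seen.

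**Figure D4:**
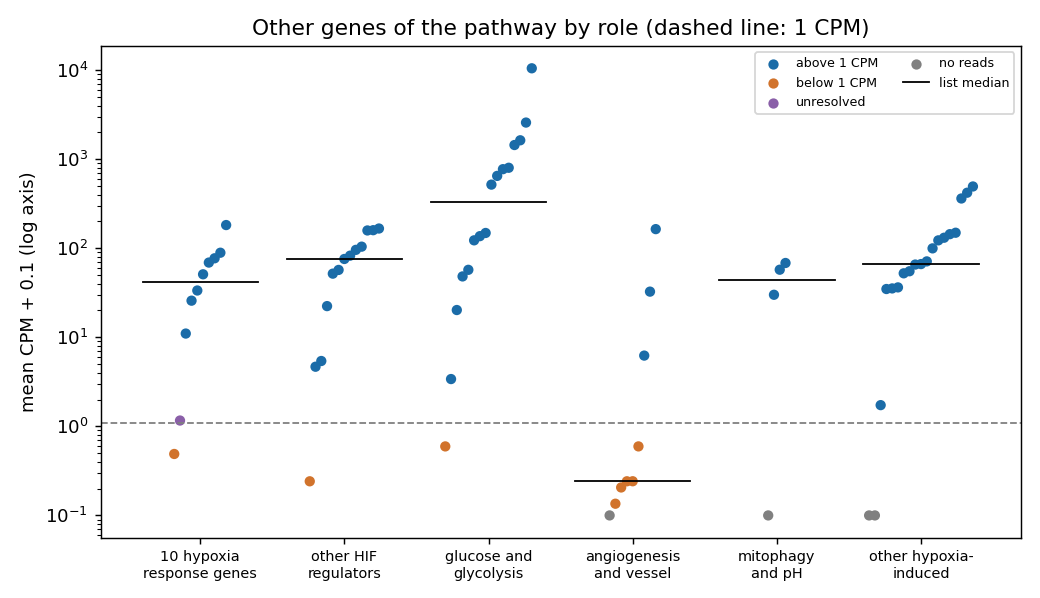
Mean CPM plus 0.1 (log axis) of each gene of the 10 and of the 5 lists of other pathway genes, coloured by the call against 1 CPM (dashed line). Black lines are list medians: the glycolysis list lies highest at 333 CPM, and the vessel list lies under the dashed line at 0.142 CPM.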

How the data were processed

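RNA from 3 Mock samples was purified on NucleoSpin columns and made into libraries by BGI, per the labels' protocols. The authors deposited estimated counts per gene symbol, not normalized, in 1 table. Its reads were mapped on GRCm38.p6, as the submitters' processing notes name the build. Aligner, counter, annotation, filters and strand: not given in the sources used here. None of the 10 genes had a fractional count (tolerance 0.005), and counts were rounded to whole numbers.

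The level test against 1 CPM was edgeR's (4.0.16, R 4.3.3) quasi-likelihood F test of a model with only an intercept, with TMM scaling, two-sided, its p never smaller than that of a Poisson likelihood ratio test. An adjusted p under 0.05 made a call. Ratios used log2 of (count + 0.5) per kilobase and limma (3.58.1, trend option). Variation between libraries used a Poisson deviance test (2 degrees of freedom) where the mean count reached 10. Lengths and positions came from GENCODE M21 by symbol, for 16839 symbols with 1 gene there, and Aldoa has no length. Intervals used scipy 1.17.1 and plots matplotlib 3.10.9. DESeq2 1.42.0 served as an alternative. The tests were also run on simulated counts. In the simulated ratios to Hif1a, the reference gene was given no sampling noise. That run therefore cannot show how far noise in the reference gene shapes the p-values of the ratios.

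Members and lists were chosen with earlier results of these data known. The text names all 10 genes, from each pathway list the 4 of highest mean CPM plus up to 4 without reads, and in each marker list the highest. Some genes that this rule names are not reported here. The highest markers of the leukocyte, endothelial and erythroid lists were Laptm5, Vwf and Hba-a1, each below 1 CPM. Vwf lost that call without any single replicate (edgeR adjusted p = 0.0629, 0.0657 and 0.121) and Laptm5 without replicate 1 or 3 (0.176 and 0.0571). Over all alternatives their adjusted p ran from 4.78e-04 to 0.66 and from 1.99e-05 to 0.552.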

Additional observations from a re-analysis of the deposited data

How the results depend on the processing

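The count of 8 genes above 1 CPM was 8 or 9 under every alternative, and that of the other pathway genes ran from 48 to 50. The count below 1 CPM, 1 for Egln3, was 0 against 0.5 CPM, 2 against 2 CPM (Egln3 and Car9) and 0 with DESeq2's Wald test, which made no such call for any gene (0 also when unadjusted). Of 52 genes followed across the alternatives of the test against 1 CPM, 38 kept direction and call under all alternatives run. Car9 lay at a log2 distance of 0.09 above 1 CPM. It was at -0.91 against 2 CPM and at -0.060 without replicate 2 (between -0.060 and 0.22 with each replicate left out). Ankrd37 was at -0.30 against 2 CPM. The ratios of Epas1 and Arnt to Hif1a and of Egln3 to Egln1 kept direction and call throughout. Their adjusted p was far larger when any replicate was left out. Egln2 to Egln1 was -0.034 with the longest transcript as length. The number of members varying between libraries was 0 to 1 with each replicate left out, 0 being without replicate 3, and 1 under other scalings. The exact Poisson test of summed counts was added after seeing the data, and it called the same number of the 10 genes above (8) and below (1). No paired analysis was possible because the samples form a single group. At this depth genes under about 1 CPM rest on fewer than 30 reads in all, and the libraries cannot be ranked for Egln3 and Car9.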
